A study of Arabidopsis thaliana with 12 samples.

Results

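Monolignol synthesis genes were described in whole seedlings of Arabidopsis thaliana that had received mock treatment or chitin, a polymer of fungal cell walls to which plants respond with immune signalling. The set holds 10 genes, taken by AGI code (the gene identifier of Arabidopsis) from the 32678 genes of the deposited count table: HCT, CYP98A3, CCoAOMT1, CCOAMT, COMT1, FAH1, CCR1, CCR2, CAD4 and CAD5. The 12 libraries form 4 groups of 3: wild type Col-0 (Col) after mock, Col after chitin, mapkkk5-1 after mock and mapkkk5-1 after chitin. Seedlings of all groups were 8 days old, had rested in liquid medium for 3 h, and were then treated for 3 h. The mutant groups come from a single line named for MAPKKK5, a MAP kinase kinase kinase gene, so effects of the gene and of the line cannot be told apart. The chitin dose reads 40 mM in the design text and 40 µM in the protocol, a conflict that could not be settled here. Each library is labelled as a replicate from 1 of 3 independent experiments, and the p-values measure the spread between these.

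Monolignols are the alcohols from which plants polymerise lignin in cell walls. The phenylpropanoid pathway makes p-coumaroyl-CoA from phenylalanine. HCT joins this to shikimate, CYP98A3 hydroxylates the ring, and O-methyltransferases methylate the ring hydroxyls. FAH1 (ferulate 5-hydroxylase) opens the branch to syringyl units, and cinnamoyl-CoA reductases (CCR) and cinnamyl alcohol dehydrogenases (CAD) carry out the final reductions to the alcohols. Lignin is best known from xylem and the root endodermis, and lignin-like deposits are also made at infection sites.

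The 300 bases upstream of the annotated gene start are printed for CCOAMT, CCR2 and CAD5, the members with the largest responses to chitin, and for CCoAOMT1, the most abundant member, in the direction of transcription (RefSeq genome TAIR10.1). Capitals mark matches on either strand to AC elements (AC-I ACCTACC, AC-II ACCAACC and AC-III ACCTAAC), motifs known from lignin gene promoters, or to the W-box letters TTGACC and TTGACT, known as contact sites of WRKY factors. These motifs do not overlap each other, and CACGTG, the G-box, was also searched. The windows are chr1:25487382-25487681 on the plus strand for CCOAMT, chr1:30370174-30370473 on the plus strand for CCR2, chr4:16388941-16389240 on the minus strand for CAD5 and chr4:16310109-16310408 on the plus strand for CCoAOMT1.
CCOAMT: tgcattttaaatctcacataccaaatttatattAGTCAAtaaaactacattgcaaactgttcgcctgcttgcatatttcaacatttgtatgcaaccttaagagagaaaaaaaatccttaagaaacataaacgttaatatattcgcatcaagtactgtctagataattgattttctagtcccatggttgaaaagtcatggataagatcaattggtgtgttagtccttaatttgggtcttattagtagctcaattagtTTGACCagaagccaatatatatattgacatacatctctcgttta
CCR2: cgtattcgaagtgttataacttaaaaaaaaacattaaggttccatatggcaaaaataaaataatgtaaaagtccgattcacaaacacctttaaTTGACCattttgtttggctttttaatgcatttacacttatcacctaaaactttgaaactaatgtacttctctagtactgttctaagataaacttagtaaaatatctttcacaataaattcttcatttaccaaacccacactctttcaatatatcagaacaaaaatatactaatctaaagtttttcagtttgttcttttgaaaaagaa
CAD5: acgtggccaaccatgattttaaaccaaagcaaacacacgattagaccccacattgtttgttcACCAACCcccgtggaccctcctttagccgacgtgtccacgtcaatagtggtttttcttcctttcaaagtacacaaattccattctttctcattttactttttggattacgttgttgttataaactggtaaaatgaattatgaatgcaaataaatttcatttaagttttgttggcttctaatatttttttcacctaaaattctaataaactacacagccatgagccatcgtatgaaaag
CCoAOMT1: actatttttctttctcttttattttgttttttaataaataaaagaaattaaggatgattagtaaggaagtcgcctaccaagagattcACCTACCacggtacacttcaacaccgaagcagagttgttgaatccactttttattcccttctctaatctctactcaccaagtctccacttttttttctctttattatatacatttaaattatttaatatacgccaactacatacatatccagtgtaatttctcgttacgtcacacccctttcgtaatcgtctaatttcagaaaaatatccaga

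An AC element stood in the windows of 5 of the 10 members, HCT, CYP98A3, CCoAOMT1, CCR1 and CAD5, against 7.16% of 27443 protein-coding genes. It was AC-II in 4 of them (3.18% of all windows) and AC-I in CCoAOMT1 (1.33%), while no member's window held AC-III (2.93%). W-box letters stood in 3 windows, those of HCT, CCOAMT and CCR2, against 32.3% of all windows. In CCOAMT they begin 267 bases (minus strand) and 44 bases before the gene start, and in CCR2 207 bases before it. The AC-II match of CAD5 lies 238 bases and the AC-I match of CCoAOMT1 213 bases before the start. The windows of COMT1, FAH1 and CAD4 held none of these letters, and no member's window held CACGTG (7.09% of all). These are letter matches in a fixed window and not measured binding sites.

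The libraries held 15455836 to 20179428 counted reads, and levels are given as CPM, counts scaled to a common library total, with library sizes scaled by TMM. At these depths 3 reads, the most that a count of 0 allows, equal 0.152 to 0.200 CPM, for counting error only. MAPKKK5 stood at 21.7 to 28.1 CPM in Col after mock and at 3.81 to 5.29 CPM in the libraries labelled mapkkk5 after mock, a log2 difference of -2.53 (edgeR adjusted p = 0.00147). After chitin it stood at 37.5 to 45.3 CPM in Col and at 13.6 to 32.9 CPM in the libraries labelled mapkkk5, a log2 difference of -0.75 that was not called (adjusted p = 0.674). The count of the targeted gene thus goes against a full loss in the chitin libraries labelled mapkkk5, and counts per gene do not show which part of it was read. In bulk seedlings, fewer cells of a type and less RNA per cell cannot be told apart.

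In Col, 8 of the 10 genes rose after chitin (edgeR quasi-likelihood test, Benjamini-Hochberg adjusted p below 0.05 over 20994 genes tested) and none fell. Over all genes tested, 21.2% rose and 17.3% fell. Of the 10, 7 rose and none fell in the libraries labelled mapkkk5, against 19.1% and 15.7% of all genes. The same 7 genes rose in both genotypes, as did 17.4% of all genes. CCR1 and CAD4 passed the test in neither genotype, and CYP98A3 passed it in Col alone, though each passed in some other fit; the difference between genotypes was tested separately and not called for any member. With the experiment number as a block in the model, all 10 rose in Col and 8 in the libraries labelled mapkkk5 (26.5% and 24.5% of all genes). Without the Col chitin library of experiment 3, or without all libraries of experiment 2, 5 rose in Col. Only 4 rose in the libraries labelled mapkkk5 without their mock library of experiment 1, without their chitin library of experiment 3, and without all libraries of experiment 1 or of experiment 3. Fewer of all genes rose in these fits too. In Col their number went from 4458 to 4169 without that chitin library and to 3152 without experiment 2. In the libraries labelled mapkkk5 it went from 4019 to 3444, 3387, 2908 and 2835, in the order named. The levels of the 3 chitin libraries lay above those of the 3 mock libraries without overlap for 9 members in Col and 7 in the libraries labelled mapkkk5, against 26.2% and 23.9% of all genes. The median log2 fold change of the 10 members was 0.79 in Col and 0.63 in the libraries labelled mapkkk5, beside 0.00 and -0.00 over all genes tested. All 10 passed the filter on low counts, but CCOAMT did so through the chitin libraries, where it is high. Its count among the raised genes is therefore a description, and of the other 9 members 7 rose in Col and 6 in the libraries labelled mapkkk5.

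**Figure D1:**
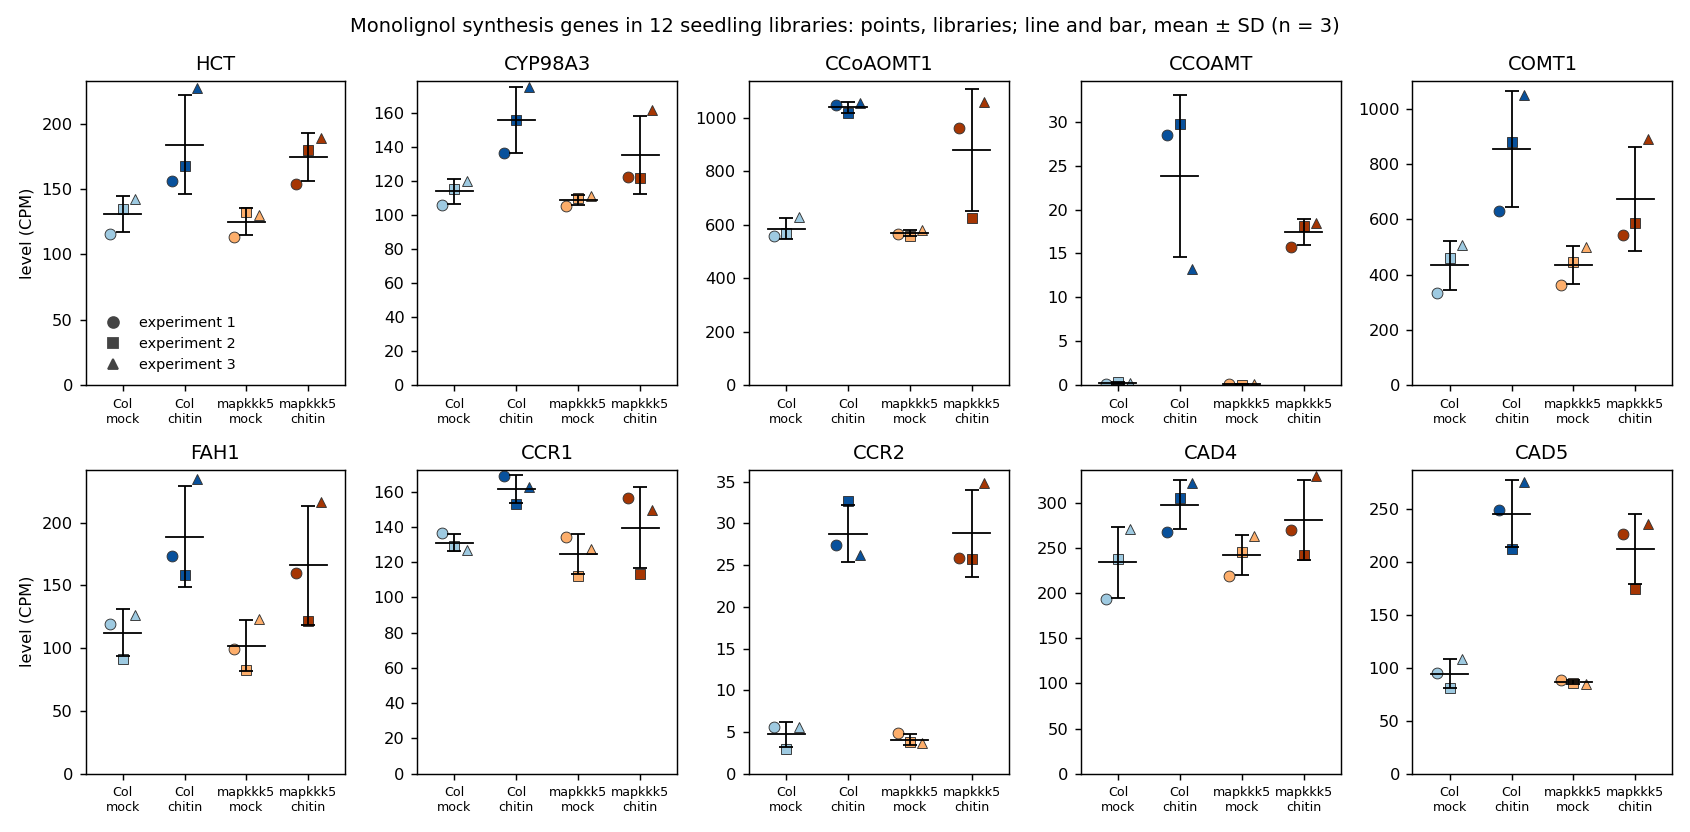
Level of each monolignol synthesis gene (y axis, CPM from 0, a scale of its own per panel) in the 12 libraries by group (x axis); symbols mark the independent experiment and bars the mean ± SD of 3 libraries. CCOAMT and CCR2 are near the floor of their panels in mock and far above it after chitin, while CCR1 and CAD4 were not called in either genotype.

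Per kilobase of exon, the member with the highest mean level in all 4 groups was CCoAOMT1, followed by COMT1 and CAD4. In Col after mock, the level per length of CCoAOMT1 was 378 ± 24.7 CPM per kb (SD, n = 3), that of COMT1 289.6 ± 59.1 and that of CAD4 129 ± 21.5. HCT, CCR1, CYP98A3, CAD5 and FAH1 followed between 56.4 and 72.7 CPM per kb in this order, and the ranges of neighbours overlapped except those of CCR1 and CYP98A3. After mock in Col, the ranges of the 3 most abundant members did not overlap. CCR2 (2.25 ± 0.712) and CCOAMT (0.190 ± 0.113) stood far below them, and their ranges overlapped with no other member's. After chitin in Col, CAD5 had moved from rank 7 to rank 4 with 152 ± 19.6 CPM per kb, where its range overlapped that of CAD4 (164 ± 15.2). The ranges of CCoAOMT1 (656 to 681 CPM per kb) and COMT1 (422 to 701) overlapped there too. CCOAMT reached 21.3 ± 8.21 and CCR2 13.7 ± 1.63 CPM per kb, still the lowest levels of the set, with overlapping ranges. The libraries labelled mapkkk5 gave the same ranks in both treatments, and after chitin their ranges of CCoAOMT1 (402 to 683) and COMT1 (364 to 594) overlapped.

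HCT (AT5G48930, chromosome 5, 19836299 to 19838235, minus strand) encodes the transferase that makes the shikimate ester. Its level in Col was 116, 135 and 142 CPM after mock and 157, 168 and 227 CPM after chitin in experiments 1 to 3. The libraries labelled mapkkk5 gave 113, 132 and 129.8 CPM after mock and 154, 180.0 and 189.5 CPM after chitin. All chitin libraries lay above all mock libraries of their genotype. HCT rose in both, with log2 fold changes of 0.49 ± 0.14 (SE; edgeR adjusted p = 0.0154) and 0.48 ± 0.14 (adjusted p = 0.0195). In each genotype the call was lost in 4 of the 15 fits that left out libraries (largest adjusted p 0.0793 and 0.107).

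CYP98A3 (AT2G40890, chromosome 2, 17058053 to 17060652, minus strand), the cytochrome P450 that hydroxylates the shikimate ester, stood at 106, 116 and 120.3 CPM in Col after mock and at 136, 156 and 175 CPM after chitin. The log2 fold change was 0.45 ± 0.13 (edgeR adjusted p = 0.0121), and the call was lost in 2 of 15 fits that left out libraries (largest adjusted p 0.0876). The levels in the libraries labelled mapkkk5 were 106, 109.9 and 111 CPM after mock and 122, 122 and 162 CPM after chitin. The groups did not overlap there either, but the log2 fold change of 0.31 ± 0.13 did not pass (adjusted p = 0.0703; 0.00907 with the experiment block). It passed in 1 of the 15 fits that left out libraries, that without the chitin library of experiment 2 labelled mapkkk5 (adjusted p = 0.0455). Its annotated position overlaps the genes CYSA by 70 bases and AT2G09205 by 529 bases, both on the opposite strand. AT2G09205 is no row of the count table, and CYSA rose (log2 0.91 in Col). The strand option of the counting is not stated, so reads of such neighbours may be mixed.

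CCoAOMT1 (AT4G34050, chromosome 4, 16310409 to 16312308, plus strand), known as the main caffeoyl-CoA O-methyltransferase of lignifying Arabidopsis stems, stood at 558, 569 and 629 CPM in Col after mock and at 1047, 1016 and 1056 CPM after chitin. The chitin libraries lay close together, and the groups did not overlap. Mock libraries labelled mapkkk5 gave 566, 558 and 579.5 CPM and those after chitin gave 959.8, 623 and 1059 CPM. The library of experiment 2 was the low one, still above the mock group. CCoAOMT1 rose by log2 0.83 ± 0.16 in Col (edgeR adjusted p = 0.000958) and by 0.63 ± 0.16 in the libraries labelled mapkkk5 (adjusted p = 0.00663). The second value was 0.83 without the chitin library of experiment 2 labelled mapkkk5, and the call was lost without all libraries of experiment 1 or of experiment 3 (largest adjusted p 0.102).

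CCOAMT (AT1G67980, chromosome 1, 25487682 to 25489312, plus strand), annotated as a caffeoyl-CoA 3-O-methyltransferase, showed the largest change of the set. It had 2, 6 and 3 reads in Col after mock and 454, 446 and 261 reads after chitin, or 0.109, 0.354 and 0.175 CPM and 28.5, 29.7 and 13.2 CPM. Libraries labelled mapkkk5 had 3, 1 and 1 reads after mock and 295, 321 and 322 reads after chitin, or 0.167, 0.0546 and 0.0625 CPM and 15.7, 18.1 and 18.5 CPM. Mock levels thus lay near that of 3 reads, and chitin levels were far above in all 6 libraries. Its fitted log2 fold change was 6.77 ± 0.41 in Col and 7.41 ± 0.46 in the libraries labelled mapkkk5, given as a description because the gene entered the fit through its chitin libraries. The ratio of summed reads, scaled to library size, was 109 in Col (exact 95% interval 60.7 to 219) and 182 in the libraries labelled mapkkk5 (77.6 to 561). These intervals cover counting error only and rest on 11 and 5 mock reads. The Col chitin library of experiment 3 was the low one of its group.

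COMT1 (AT5G54160, annotated OMT1, chromosome 5, 21981902 to 21984399, plus strand), the methyltransferase of the syringyl branch, which also acts on flavonols, was 335, 459 and 506 CPM in Col after mock and 632, 881 and 1049.7 CPM after chitin. The groups did not overlap, and experiment 3 was the highest in both. COMT1 rose by log2 0.98 ± 0.23 (edgeR adjusted p = 0.00385; 0.0574 without all libraries of experiment 2). With 363, 446 and 499 CPM after mock and 545, 586 and 889 CPM after chitin, it rose by 0.63 ± 0.23 in the libraries labelled mapkkk5 (adjusted p = 0.0449). This call, just past the threshold, was lost in 9 of 15 fits that left out libraries (largest adjusted p 0.217) and with upper-quartile scaling. With the experiment block it held (edgeR adjusted p = 0.000103), and the differences within experiments 1 to 3 were 0.59, 0.39 and 0.83 on the log2 scale.

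FAH1 (AT4G36220, chromosome 4, 17137313 to 17139777, minus strand) was at 119, 91.1 and 127 CPM in Col after mock and at 174, 158 and 235 CPM after chitin, without overlap. For the libraries labelled mapkkk5, mock gave 99.1, 83.0 and 123 CPM and chitin 160.1, 122 and 216 CPM. The mock library of experiment 3 there lay just above the chitin library of experiment 2, so these groups overlapped. FAH1 rose by log2 0.75 ± 0.22 in Col (edgeR adjusted p = 0.0141) and by 0.71 ± 0.22 in the libraries labelled mapkkk5 (adjusted p = 0.0216). Both calls were lost in some fits that left out libraries, 3 of 15 and 4 of 15 (largest adjusted p 0.0850 and 0.144). Both held with the experiment block (edgeR adjusted p = 6.83e-06 and 1.68e-05).

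**Figure D2:**
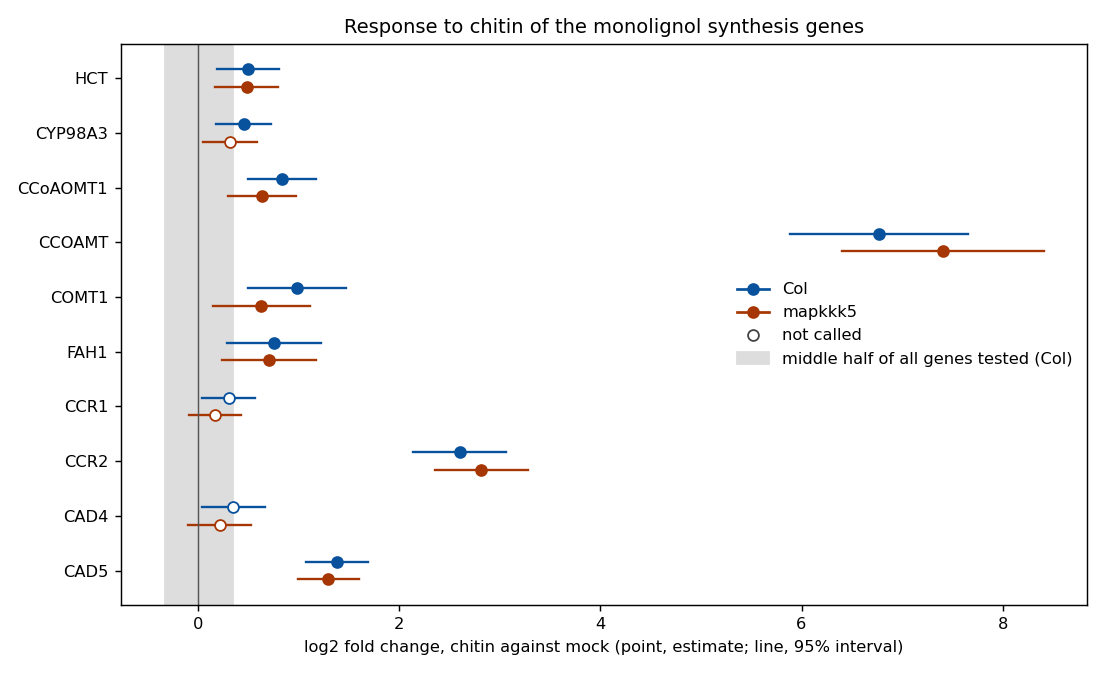
Log2 fold change of each monolignol synthesis gene, chitin against mock (x axis), in Col and in the libraries labelled mapkkk5; points are edgeR estimates, lines 95% intervals, open points were not called, and the grey band spans the quartiles of all genes tested in Col (-0.33 to 0.34). CCOAMT, CCR2 and CAD5 lie farthest to the right in both genotypes, and the intervals of both genotypes overlap for every member.

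CCR1 (AT1G15950, chromosome 1, 5478603 to 5482180, plus strand) encodes the reductase known from stem lignification. It stood at 136, 129 and 127 CPM in Col after mock and at 169, 153 and 163 CPM after chitin, without overlap. The log2 fold change of 0.30 ± 0.12 did not pass (edgeR adjusted p = 0.0642) and passed with the experiment block (adjusted p = 0.00866) and in a fit of the 2 Col groups alone (0.0406). Libraries labelled mapkkk5 gave 134, 112 and 127 CPM after mock and 156, 113 and 149 CPM after chitin. The groups overlapped, with a log2 value of 0.17 ± 0.12 (edgeR adjusted p = 0.320), which ranged from 0.08 to 0.30 over the fits that left out libraries. Without the chitin library of experiment 2 labelled mapkkk5, CCR1 passed in both genotypes (adjusted p = 0.0210 in Col and 0.0447), and it passed in no other of these 15 fits. CCR1 is overlapped on the opposite strand by AT1G05213 (2457 bases, no row of the count table) and by NRAMP6 (516 bases, log2 -0.68 in Col).

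CCR2 (AT1G80820, chromosome 1, 30370474 to 30372799, plus strand), the reductase gene known from responses to pathogens, stood at 5.63, 3.01 and 5.55 CPM in Col after mock and at 27.4, 32.7 and 26.3 CPM after chitin. In the libraries labelled mapkkk5 the mock levels were 4.84, 3.76 and 3.62 CPM and the chitin levels 25.8, 25.8 and 34.8 CPM. Every chitin library was several times above every mock library. CCR2 rose by log2 2.60 ± 0.21 in Col (edgeR adjusted p = 8.68e-07) and by 2.82 ± 0.22 in the libraries labelled mapkkk5 (adjusted p = 5.38e-07). NRAMP1, which overlaps it by 132 bases on the opposite strand, had 814 to 1706 reads and rose by less (0.49 and 0.48).

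CAD4 (AT3G19450, chromosome 3, 6744377 to 6747238, plus strand) and CAD5 (AT4G34230, chromosome 4, 16386631 to 16388940, minus strand) encode the dehydrogenases held to be the main lignin enzymes of their family in Arabidopsis. CAD4 was at 193, 238 and 271 CPM in Col after mock and at 268, 305 and 321 CPM after chitin. In the libraries labelled mapkkk5, mock gave 219, 245 and 263 CPM and chitin 270.0, 242 and 329.6 CPM. Groups overlapped in both genotypes, and the log2 values of 0.35 ± 0.15 (edgeR adjusted p = 0.0750; 0.00402 with the experiment block) and 0.21 ± 0.15 (adjusted p = 0.288) did not pass. CAD4 passed in Col in 1 of 15 fits that left out libraries, that without the Col mock library of experiment 3 (adjusted p = 0.0372). CAD5 was at 95.1, 80.9 and 108 CPM in Col after mock and at 249.7, 213 and 276 CPM after chitin. The libraries labelled mapkkk5 had 88.9, 86.0 and 85.3 CPM after mock and 227, 175 and 236 CPM after chitin. No groups of CAD5 overlapped, and it rose by log2 1.38 ± 0.14 (edgeR adjusted p = 6.60e-06) and 1.29 ± 0.14 (adjusted p = 1.48e-05).

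Pairs of the same enzyme family shifted towards the less abundant member after chitin. CCR2 had 2.35% to 4.39% of the reads of CCR1 in the mock libraries of Col and 16.1% to 21.4% after chitin. Among libraries labelled mapkkk5, it had 2.87% to 3.64% after mock and 16.6% to 23.3% after chitin (0.5 read added to each count). The CCR2 to CCR1 ratio rose 5.66-fold (log2 2.50, from 1.88 to 3.19 over 6 of 6 differences within experiment and genotype; two-sided exact permutation test within genotype, p = 0.005). CAD5 had 32.5% to 49.2% of the reads of CAD4 in the 6 mock libraries and 69.7% to 93.3% in the 6 chitin libraries. The CAD5 to CAD4 ratio rose 2.07-fold (log2 1.05, from 0.92 to 1.14 over 6 of 6 differences; exact permutation p = 0.005). CCOAMT had 0.0147% to 0.0673% of the reads of CCoAOMT1 after mock and 1.26% to 2.93% after chitin. That ratio was higher after chitin in 6 of 6 differences, but its size rests on 1 to 6 mock reads per library and on the read added (log2 6.25 with 0.5 read, and smaller with 2 reads), so it is given as a description. The value 0.005 is the smallest that the 400 arrangements allow, and it is also the value adjusted over the 3 pairs. The permutation does not use the pairing by experiment. It takes the libraries of both genotypes as independent, though they come from the same 3 experiments. Within 1 genotype (3 against 3) the smallest possible p is 0.1, which the CCR and CAD ratios gave in both genotypes. The pairs were chosen with earlier results of these data known.

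**Figure D3:**
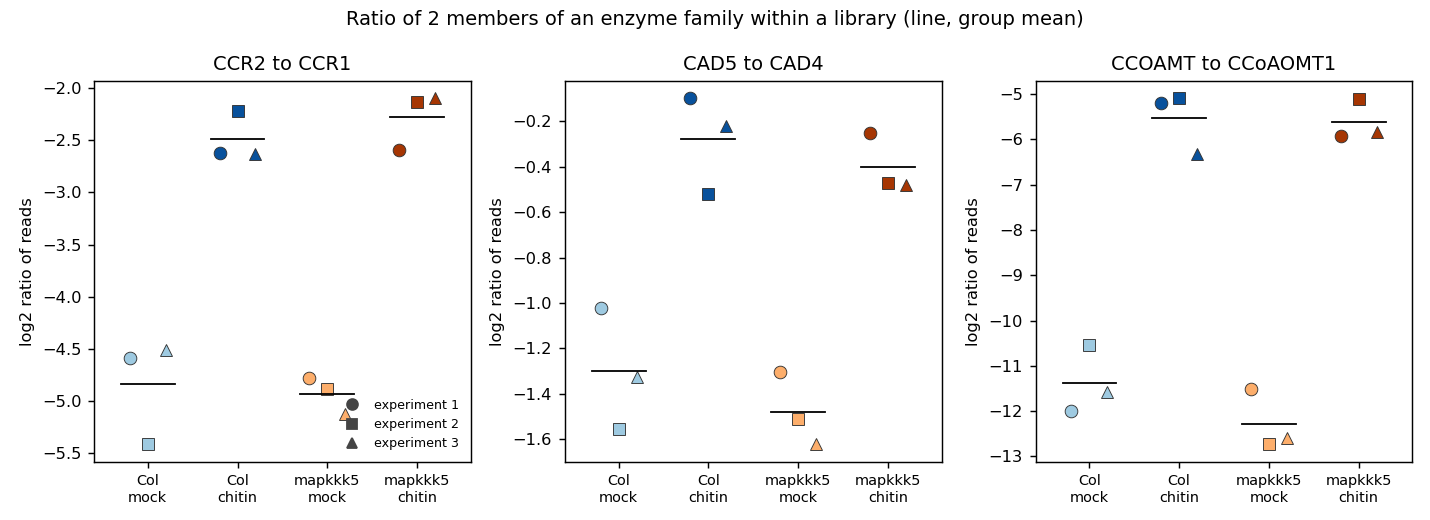
Log2 ratio of reads (y axis) of CCR2 to CCR1, CAD5 to CAD4 and CCOAMT to CCoAOMT1 in each library by group (x axis); symbols mark experiments and lines group means. In all 3 panels every chitin library lies above every mock library of both genotypes.

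The treatment of reads that match several genes is not stated, and the coding sequences of these pairs differ at many positions. CCR1 and CCR2 share 78.6% of aligned coding bases, with a longest identical run of 20 bases. CAD4 and CAD5 share 75.6% (run of 32 bases) and CCoAOMT1 and CCOAMT 64.0% (run of 12 bases).

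No difference between genotypes was called for the set. No member was called between the libraries labelled mapkkk5 and Col after mock, where 0.0191% of all genes were (4 genes), or after chitin, where 0.0714% were (15 genes). DESeq2 also called no member in either comparison. In the edgeR fit without the experiment block, no member had an unadjusted p below 0.05 (0 of 10 in each, against 2.21% of all genes after mock and 6.08% after chitin). That count does not use the pairing by experiment. With the block every member had a smaller SE after chitin, and none was called. The smallest adjusted p was that of COMT1 (log2 -0.34 ± 0.09, edgeR adjusted p = 0.143, against an SE of 0.22 without the block). After mock the log2 differences of 9 members lay between -0.21 and 0.05, and for CCOAMT, with 11 and 5 reads in the groups, no fold is given. After chitin the differences ran from -0.45 (CCOAMT, 95% interval -0.98 to 0.09) and -0.34 (COMT1, -0.83 to 0.14) to 0.00 (CCR2, -0.40 to 0.41), and 9 of 10 were below 0. The member median after chitin was -0.21 beside -0.01 over all genes tested. This median depended on single libraries: it was -0.08 without the chitin library of experiment 2 labelled mapkkk5, -0.32 without that of experiment 3, -0.11 without the Col chitin library of experiment 3 and -0.12 without all libraries of experiment 2. The chitin library of experiment 2 labelled mapkkk5 was the lowest of its group for 7 members (CCoAOMT1, FAH1, CCR1, CAD4, CAD5 and, by a small margin, CYP98A3 and CCR2). It also had the lowest summed level of 9 xylem markers of all 12 libraries (106 CPM, against 134 to 176 in the others), and their part in the member values was not tested.

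The chitin response itself was not found to differ between genotypes for any member. In the test of the difference of responses without the experiment block, no gene of the table was called by edgeR (0%). There 275 of 20994 (1.31%) had an unadjusted p below 0.05, and none of these was a member. This count does not use the pairing by experiment. With the block COMT1 was at -0.36 ± 0.13 (SE, against 0.32 without it), and edgeR called 2 genes (0.00953%), no member among them. DESeq2 called no member either. Without the block the estimates ran from -0.35 for COMT1 (95% interval -1.04 to 0.33) to 0.64 for CCOAMT (-1.36 to 2.63). For CCR2 the difference was 0.22 (-0.43 to 0.86) and for CAD5 -0.08 (-0.51 to 0.34). The intervals allow differences of about the size of the Col responses themselves, or larger, for HCT (-0.45 to 0.43), CYP98A3 (-0.52 to 0.25), COMT1, FAH1 (-0.70 to 0.61), CCR1 (-0.51 to 0.23) and CAD4 (-0.58 to 0.31), so a like response was not shown.

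**Figure D4:**
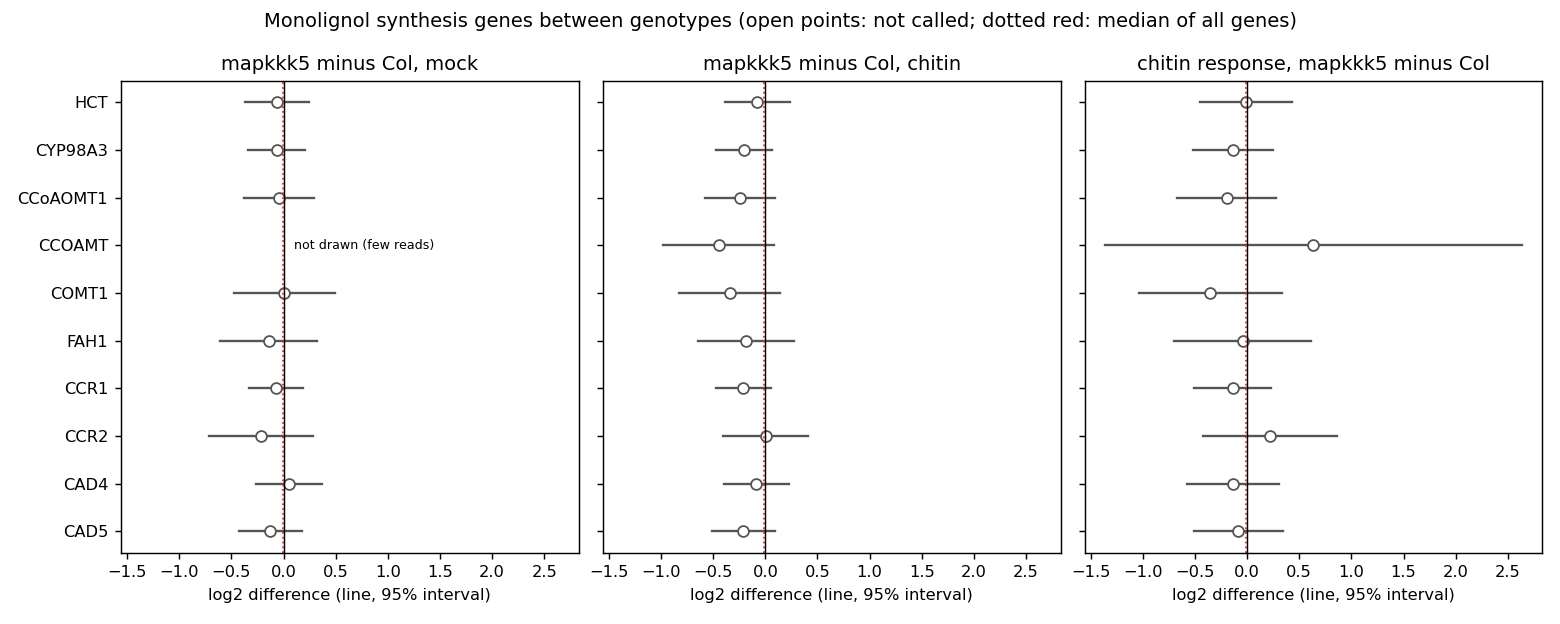
Log2 difference (x axis; point, edgeR estimate, line, 95% interval) between the libraries labelled mapkkk5 and Col after mock, after chitin, and between their chitin responses, for each monolignol synthesis gene. All intervals drawn include 0, and CCOAMT after mock is not drawn because it rests on 11 and 5 reads.

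The experiments differed in level but not in direction. Of 60 differences between chitin and mock within member, genotype and experiment, 59 were above 0, and the exception was CAD4 in experiment 2 of the libraries labelled mapkkk5 (-0.01). Experiment 3 had the highest level in all 4 groups for CYP98A3, CCoAOMT1, COMT1, FAH1 and CAD4, and in 3 of 4 groups for HCT and CAD5. It was the highest in 1 group for CCR2 and CCOAMT and in no group for CCR1. These signs and ranks were not counted over all genes, and the members share the same libraries, so both are descriptions.

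The genes that feed the pathway rose in most cases. Of 11 genes of the phenylpropanoid entry (PAL, C4H, 4CL and the reductases of their P450 enzymes), 8 rose and 2 fell in Col, and 6 rose and 1 fell in the libraries labelled mapkkk5, with medians of 0.70 and 0.41 on the log2 scale. The shares of all genes were 21.2% raised and 17.3% lowered in Col, and 19.1% and 15.7% in the libraries labelled mapkkk5. PAL2, a phenylalanine ammonia-lyase gene, rose by log2 0.93 and 0.67, 4CL1 by 0.84 and 0.71, and the P450 reductase gene ATR2 by 0.72 and 0.73 (edgeR adjusted p at most 0.00465). 4CL3, a 4-coumarate-CoA ligase gene known for flavonoid synthesis, fell by 1.00 and 1.20 on the log2 scale. PAL3 fell by 0.54 in Col, and its value in the libraries labelled mapkkk5 was -0.26 (edgeR adjusted p = 0.161). 4CL5, another 4-coumarate-CoA ligase gene, stood at 43.6, 45.3 and 63.8 CPM in Col after chitin and at 26.3, 27.9 and 33.4 CPM in the chitin libraries labelled mapkkk5, against 22.5 to 26.9 CPM in all 6 mock libraries. It rose in Col (log2 1.07, edgeR adjusted p = 6.07e-05), and its value was 0.18 in the libraries labelled mapkkk5 (adjusted p = 0.368). After chitin 3 of the 11 genes were lower without overlap in the libraries labelled mapkkk5 than in Col, against 5.62% of all genes. The log2 differences of the 11 had a median of -0.24 and none was above 0. For 4CL5, among these 3, the difference was -0.80 (edgeR adjusted p = 0.0699, and 0.000862 with the experiment block). The difference of its responses, -0.89, was not called (adjusted p = 1.00; 0.0639 with the block).

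Relatives of the members moved in both directions. The list holds 18 genes outside the set, family members and CSE, which is annotated as a lysophospholipase. Of these, 13 passed the filter, of which 5 rose and 5 fell in Col, and 6 rose and 3 fell in the libraries labelled mapkkk5. The shares of all genes were 21.2% raised and 17.3% lowered in Col, and 19.1% and 15.7% in the libraries labelled mapkkk5. CAD1 rose by log2 0.89 and 0.87 and the CCR-like genes CRL2 by 0.65 and 0.61 and CRL1 by 0.50 in the libraries labelled mapkkk5. In Col, CRL1 was at 34.7 to 39.6 CPM after mock and 41.7 to 54.3 CPM after chitin. CYP84A4, a P450 gene of the FAH1 family, rose by 1.37 in Col. In the libraries labelled mapkkk5 it was at 2.31 to 5.57 CPM after mock and 5.68 to 7.81 CPM after chitin. CAD9 fell by 0.88 and 0.76, CAD6 by 1.18 and 1.13, and CCoAOMT7 by 0.66 and 0.92 on the log2 scale (edgeR adjusted p at most 0.00802 for these 3). The CAD family thus held both raised and lowered genes in each genotype.

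Side branches that draw on the same intermediates also held calls in both directions, as did the whole table. Of 15 genes tested (of 17), 5 rose and 2 fell in Col, and 5 rose and 3 fell in the libraries labelled mapkkk5. The shares of all genes were 21.2% raised and 17.3% lowered in Col, and 19.1% and 15.7% in the libraries labelled mapkkk5. F6'H1, the feruloyl-CoA hydroxylase of scopoletin synthesis, rose by log2 2.00 and 1.66. REF1, an aldehyde dehydrogenase that makes ferulate and sinapate, rose by 1.66 and 1.65. AACT1 (AT5G61160), annotated as an acyltransferase, rose by 2.15 and 2.65 (edgeR adjusted p at most 0.000154 for the 3 genes). UGT72E2, a glucosyltransferase of monolignols, fell by 0.70 and 0.66 on the log2 scale. AT2G25150, annotated as an acyl-transferase family protein, fell by 1.83 and 1.91 from levels of 1.12 to 2.94 CPM. AT3G12900 had 0 to 8 reads after chitin in the libraries labelled mapkkk5 and 16 to 55 after mock. It passed the filter on low counts through its mock libraries, where it is high. Its place among the 3 genes that fell in the libraries labelled mapkkk5 is therefore a description.

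**Figure D5:**
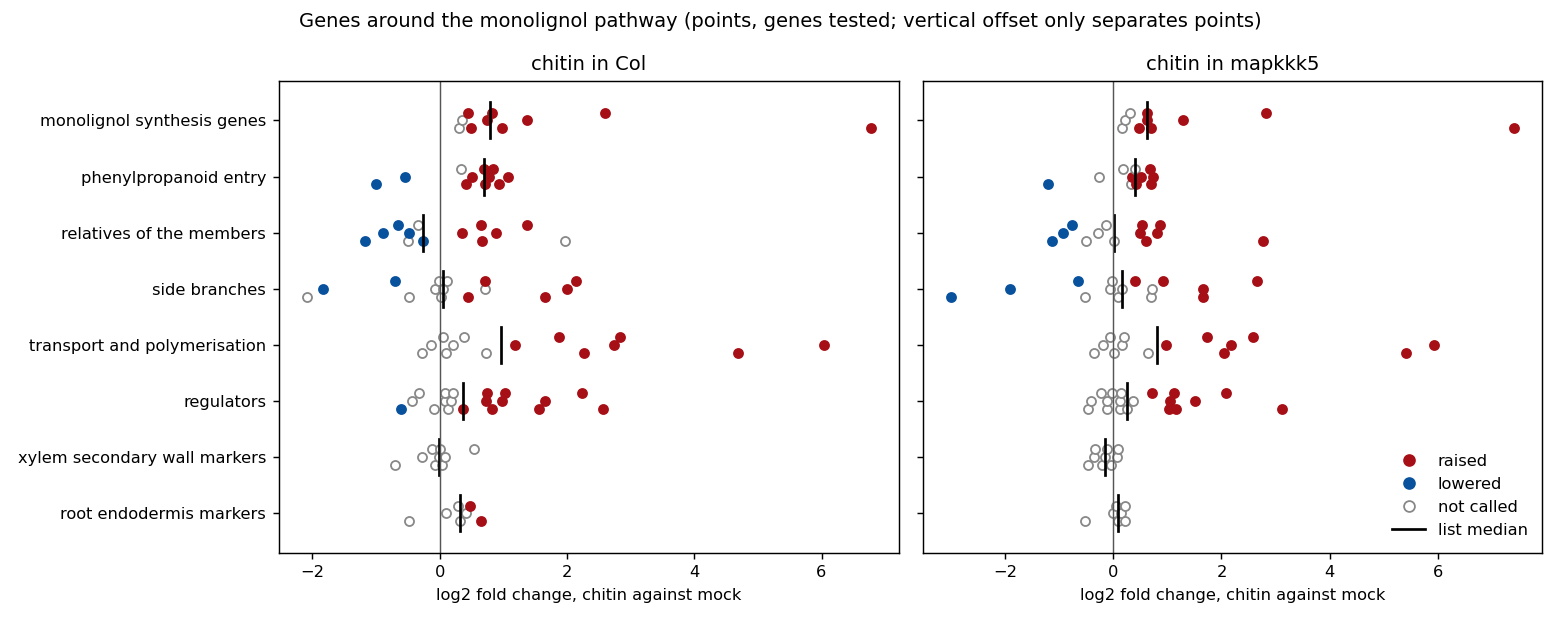
Log2 fold change, chitin against mock (x axis), of every tested gene in the monolignol set and 7 lists around it (rows), in Col (left) and in the libraries labelled mapkkk5 (right); colours give the edgeR call and black bars the list median. The transport and polymerisation list holds the largest changes beside CCOAMT, and the xylem markers have medians of -0.00 in Col and -0.16 in the libraries labelled mapkkk5.

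Genes of monolignol transport and polymerisation rose or were not called. Of 14 tested (of 15), 7 rose and none fell in each genotype. The shares of all genes, for this list and for the regulators below, were 21.2% raised and 17.3% lowered in Col. In the libraries labelled mapkkk5 they were 19.1% and 15.7%. The peroxidase gene PRX4 (annotated PER4, AT1G14540) rose from 0.602 to 1.58 CPM after mock to 51.1 to 71.1 CPM after chitin in Col, a log2 fold change of 6.05, and by 5.92 in the libraries labelled mapkkk5. DIR5, a dirigent protein gene, rose by log2 4.68 and 5.40. BGLU46, a beta-glucosidase known to act on monolignol glucosides, rose by 1.87 in Col, and the peroxidase gene PRX71 by 2.17 in the libraries labelled mapkkk5 (edgeR adjusted p at most 4.51e-06 for these genes). Both also stood higher after chitin in the other genotype. BGLU46 was at 15.7 to 19.4 CPM after mock and 46.9 to 74.7 CPM after chitin in the libraries labelled mapkkk5. PRX71 was at 198 to 223 CPM after mock and 788 to 1230 CPM after chitin in Col. Of 19 regulators tested (of 21), 10 rose and 1 fell in Col, and 8 rose and none fell in the libraries labelled mapkkk5 (9 and 1 there with the experiment block). MYB15, known as a regulator of lignin genes in defence, rose by 2.24 and 2.07. KFB20 and KFB01, F-box proteins known to promote turnover of PAL enzymes, rose by 2.57 and 3.11 and by 1.03 and 1.15. KNAT7, a homeobox gene known from secondary walls, fell by 0.60 in Col, and its value in the libraries labelled mapkkk5 was -0.47 (edgeR adjusted p = 0.05002, just above the threshold; 0.00777 with the block).

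Markers of xylem and endodermis were counted in the same way. Of 9 xylem secondary wall markers, none was called by edgeR in either genotype (0 of 9 with an unadjusted p below 0.05 in Col and 1 of 9 in the libraries labelled mapkkk5, against 46.7% and 43.9% of all genes). By DESeq2 the counts were 0 and 1. No marker of the list was at 0 reads in any library. Their summed level was 153 to 175 CPM in Col after mock and 134 to 176 after chitin, and 134 to 175 and 106 to 176 CPM in the libraries labelled mapkkk5. The smallest p belonged to VND6 in Col (log2 -0.69, edgeR adjusted p = 0.140) and to CESA7 in the libraries labelled mapkkk5 (-0.46, adjusted p = 0.0516; 0.0126 with the experiment block). Of 7 root endodermis markers, 2 rose in Col (3 with the experiment block, against 21.2% and 26.5% of all genes), with the Casparian strip gene CASP2 (log2 0.66, edgeR adjusted p = 0.0228) among them and a summed level over the list of 101 to 129 CPM after mock and 118 to 187 after chitin. None was called in the libraries labelled mapkkk5 (summed level 118 to 134 CPM after mock and 120.3 to 154 after chitin), where the smallest p belonged to ESB1 (0.22, adjusted p = 0.343), none had an unadjusted p below 0.05 and DESeq2 called none (0 of 7). Of 4 seedling organ markers, IRT1, PYK10 and RBCS1A fell in Col by 2.84, 1.05 and 0.54 on the log2 scale, and IRT1 and PYK10 by 3.54 and 1.19 in the libraries labelled mapkkk5. With the experiment block all 4 fell in both genotypes, beside 23.8% of all genes in Col and 22.7% in the libraries labelled mapkkk5 (17.3% and 15.7% without the block). Their summed level was 14355 to 15807 CPM in Col after mock and 9621 to 9977 after chitin, and 13538 to 15038 and 9705 to 11138 CPM in the libraries labelled mapkkk5. The list mixes the photosynthesis genes RBCS1A and CAB1 with IRT1 and PYK10, so this sum gives no share of any organ. The part of organ or cell type shares in the member values was not tested.

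For the 7 members called in both genotypes, the tested genes with the most similar pattern were sought by Pearson correlation of log2 CPM over the 12 libraries, which share the division into mock and chitin. HCT was most like CRK18 (r = 0.97), SAM1 (0.97), an S-adenosylmethionine synthetase gene, and ELM1 (0.97). CCoAOMT1 was most like AT1G74640 (0.99), PSAT (0.99), a gene of serine synthesis, and RBL4 (0.98). CCOAMT was most like AT4G37290 (0.999), MYB122 (0.996) and GSTF3 (0.995). COMT1 was most like OASC (0.99), AT3G08930 (0.98) and PDIL1-2 (0.98), and FAH1 like MEE39 (0.98), AT2G43160 (0.97) and mtLPD2 (0.97). CCR2 was closest to AT1G25400 (0.99), AT3G28940 (0.99) and AT5G22530 (0.99), and CAD5 to CLT3 (0.99), AT5G54170 (0.99) and AT1G03740 (0.99).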

How the data were processed

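RNA of whole seedlings was sequenced from poly(A)-enriched, directional libraries, per the labels' protocols. The authors deposited raw read counts per gene for all 12 libraries, with no normalization. CASAVA 1.8.2, cutadapt 1.5, TopHat2 2.0.10, HTSeq 0.6.1 and the build TAIR10 are named in the submitters' processing notes; their settings, the strand option included, are not stated. Positions, exon lengths, symbols and sequences came from the RefSeq annotation and genome TAIR10.1 (31912 of 32678 identifiers matched); the count table itself carries no coordinates.

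Counts were fitted with edgeR 4.0.16 in R 4.3.3: filterByExpr (20994 genes kept, all 10 members among them), TMM scaling (factors 0.971 to 1.034), and 1 quasi-likelihood model of 4 groups (8 residual degrees of freedom), with Benjamini-Hochberg adjustment over all genes tested and calls at an adjusted p below 0.05. The scripts were tested on simulated data. Intervals are 95%. Ratios of pairs were tested by exact permutation within genotype, adjusted over the 3 pairs. Coding sequences were aligned with Biopython 1.88. The members, pairs and the 8 lists around them (102 genes) were chosen with earlier results of these data known. Every member is named; from each list, up to 3 raised and 3 lowered genes per chitin comparison are named by smallest p, or the smallest p where none was called, beside 3 most similar genes for each member called in both genotypes. Genes that the annotation does not name are given by identifier, and 1 gene that this rule names is not reported here.

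No libraries were merged: over 12 pairs of replicates, chi-square divided by its degrees of freedom was 11.1 to 27.4. Replicate numbers were taken to mark shared experiments, since the deviations of same-numbered libraries from their group means correlated above 0.1 in all 12 pairs (0.16 to 0.51). Blocked values are given where they change the call of a member or of a listed gene's value printed in the text, and for COMT1 and FAH1. Other listed genes are not given one by one. Alternatives were DESeq2 1.42.0, other scalings and filters, and leaving out libraries.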

Additional observations from a re-analysis of the deposited data

How the results depend on the processing

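CCR2 and CAD5 kept direction and call in both genotypes under all 22 alternatives, as did CCoAOMT1 in Col. The call of CCOAMT was kept too, but it is a description, because the gene entered the fit through its chitin libraries. Leaving out libraries gave 5 to 9 members raised in Col and 4 to 9 in the libraries labelled mapkkk5. Among all genes, 3152 to 4617 rose in Col and 2835 to 4076 in the libraries labelled mapkkk5 in these fits. No alternative called a member between genotypes or in the difference of responses; the pairing as a replicate block gave 10 and 8 raised members and 0 in these 3 comparisons, and changed no member's call beside those named in the report (CCR1 and CAD4 in Col, CYP98A3 in the libraries labelled mapkkk5). The block raised the number of all genes called after chitin from 15 to 96 between genotypes and from 0 to 2 in the difference of responses. Upper-quartile scaling shifted the median log2 value of all genes in Col by -0.11 and turned its split of 4458 raised and 3625 lowered into 3583 and 5017 (4019 and 3289 into 3347 and 4355 in the libraries labelled mapkkk5); the cause was not tested.

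The ratio changes were 2.35 and 2.65 (CCR2 to CCR1), 1.02 and 1.08 (CAD5 to CAD4) and 5.84 and 6.65 (CCOAMT to CCoAOMT1) on the log2 scale in Col and mapkkk5 alone, where 3 against 3 libraries cannot go below an exact permutation p of 0.1. Without libraries they were 2.26 to 2.71, 0.99 to 1.12 and 6.09 to 6.45, and without a whole experiment the smallest possible p was 0.0556. With pairing by replicate block the exact sign-flip p was 0.03125, the smallest it can give, for the CCR and CAD pairs. It takes 6 differences as independent, though both genotypes come from the same 3 experiments. The CCOAMT ratio is a description.

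Several uncalled genotype values changed sign. CCR2 after chitin was -0.0072 with the replicate block, and the HCT difference of responses was 0.0026 with DESeq2, 0.0026 with RLE scaling and 0.016 with upper-quartile scaling. Ranges over fits that left out libraries, after mock, were -0.15 to 0.0029 (HCT), -0.077 to 0.011 (CCoAOMT1), -0.15 to 0.14 (COMT1) and -0.070 to 0.17 (CAD4). After chitin they were -0.18 to 0.11 (HCT), -0.42 to 0.0014 (FAH1), -0.22 to 0.18 (CCR2) and -0.22 to 0.033 (CAD4). For the difference of responses they were -0.12 to 0.17 (HCT), -0.38 to 0.0066 (CCoAOMT1), -0.020 to 1.83 (CCOAMT), -0.28 to 0.14 (FAH1), -0.20 to 0.59 (CCR2) and -0.19 to 0.055 (CAD5). A fit of only the groups compared gives no difference of responses, and in it CCOAMT did not pass the filter after mock. Depth limits CCOAMT after mock, with 1 to 6 reads per library.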
